A study of Mus musculus with 3 samples.

Results

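Mast cells secrete a wide range of cytokines and growth factors, and 9 such genes are described here across a Tet2 cross-linking and immunoprecipitation (CLIP) experiment. The genes, named as a list and not by a measured value, are Lif, Csf1, Ccl2, Tgfb1, Vegfa, Il6, Tnf, Il13 and Il4. They are 9 of 21900 protein-coding genes in the annotation. A peak was counted for a gene when its midpoint lay in the gene's span on mouse build mm10, and genes without a peak are reported as well. Of the 8196 peaks in the deposited lists, 19 lay in the spans of these genes.

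Tet2 is an enzyme that oxidises 5-methylcytosine, and CLIP uses ultraviolet light to fix a protein to the RNA it touches before the protein is pulled down. The single group held 3 replicate libraries of C57BL/6 bone marrow derived mast cells. Their headings mark them as biological replicates, but no label says which animals or cultures they came from. The cells had grown for 4 to 6 weeks with 10 ng/ml interleukin-3 and 5 ng/ml stem cell factor. The cells were positive for FcεRI and c-Kit at a purity above 97.5%, and were irradiated at 400 and then 200 mJ per square centimetre. The labels name no antigen, genotype or other treatment, and neither an input nor a control-antibody library was analysed here. The series asks which RNAs Tet2 binds, so the comparisons that follow are between genes and between replicate libraries.

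The lists of replicates 1, 2 and 3 held 3019, 2800 and 2377 peaks. Heights are the authors' normalized values and sum to 1 in a library. Each is a whole multiple of a fixed step, called a unit here, and the heights add up to 19213, 18270 and 15431 units. No source used here says whether a unit is 1 read, and sequencing depth is therefore unknown. The lowest peaks stood at 2, 2 and 3 units and the median at 4 units in each library, so a gene with no peak may have had signal below what the lists hold. Of 14 mast cell marker genes, 8 held a peak and 7 held one in every library, among them Gata2 at 18, 11 and 15 units and Slc18a2 at 11, 13 and 9 units. The receptor subunit genes Fcer1a, Ms4a2 and Fcer1g and the protease genes Mcpt4 and Cma1, as well as Mrgprb1, held none. No neutrophil (0 of 10) or lymphocyte (0 of 10) marker held a peak. Macrophage and dendritic markers had 2 of 12 (16.7%), both in replicate 2 alone, and basophil and eosinophil markers 1 of 7 (14.3%). Both shares are close to the 14.1% of all protein-coding genes with a peak in at least 1 library. In every library, 3.16% of all protein-coding genes held a peak. The lists are short, so a count of 0 of 10 is not far from the share over all genes. Of 8 stromal and endothelial markers, 4 held a peak and 3, the collagen genes Col3a1, Col1a1 and Col1a2, held one in every library, with Col3a1 at 17, 7 and 9 units. Over its 8 genes, the tallest heights of that stromal list sum to 35, 14 and 20 units. Those of the mast cell list, with 14 genes, sum to 60, 48 and 51 units. The lists differ in size, so these sums do not compare them gene by gene. Pdgfra, Cdh5, Lum and Dcn held no peak. In pooled cells, RNA from a few cells of another type cannot be told apart from a low level in all cells, and the part of such cells in the results was not tested.

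The genes fall into classes by what they encode. Lif, Il6, Il4 and Il13 are cytokines that signal through receptor chains linked to JAK kinases. Csf1 and Vegfa act through receptor tyrosine kinases on myeloid and endothelial cells. Tgfb1 is made as a latent precursor and acts through serine/threonine kinase receptors, Ccl2 draws monocytes through a G protein-coupled receptor, and Tnf is an inflammatory cytokine made as a membrane protein and cut from the cell surface. Mast cells are known to make Tnf, Il6, Il13 and Il4 after FcεRI is cross-linked by antigen. Messages of many of these genes are short-lived, a property known to depend on AU-rich elements in the tail of the message and on proteins that bind them.

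Tet2 peaks were found in the growth factor genes and in Lif and Ccl2, and in none of the 4 classical mast cell cytokine genes. At least 1 library had a peak in 5 of the 9 genes (55.6%), against 14.1% of all protein-coding genes. Lif, Tgfb1 and Vegfa held a peak in every library, 3 of 9 genes (33.3%), where 3.16% of all protein-coding genes did. Ccl2 and Csf1 held a single peak each, in different libraries, and 7.74% of all protein-coding genes had peaks in 1 library alone. The Csf1 peak also lies in the span of the long non-coding gene Gm40121, and these genes cannot be told apart there. By library, 3, 4 and 4 of the 9 genes held a peak in replicates 1, 2 and 3, against 8.55%, 8.04% and 7.02% of all protein-coding genes. Il6, Tnf, Il13 and Il4 had no peak in any library. All 4 have spans under 7000 nt, and 6.87% of protein-coding genes that short held a peak in at least 1 library. Finding none among 4 such genes is thus little different from that share. The finding in every library rested on low peaks: with peaks of at least 4 units alone, Tgfb1 was the 1 gene of the 9 with a peak in every library. With no control group, no test between groups exists, and these shares are descriptions. The genes were brought together with earlier results of these data known, so their share is no independent evidence about secreted factors as a class.

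The 9 genes held 7, 8 and 4 peaks in replicates 1, 2 and 3, or 6.33 ± 2.08 (SD, n = 3). Their peaks took 0.141%, 0.186% and 0.0907% of the summed height of a library, a mean of 0.139% ± 0.0477 (SD, n = 3). Replicate 3, whose list is the shortest, had the fewest peaks in these genes and the smallest share of height. Peaks of these genes ranged from 3 to 7 units with a median of 4, the median of all peaks. Of the 19 peaks, 9 stood at 3 units, 5 at 4 units and 5 at 5 units or more. The share at 5 units or more was 26.3%, against 36.1% over all peaks. They were 3 to 137 nt wide, with a median of 64 nt against 53 nt over all peaks.

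**Figure D1:**
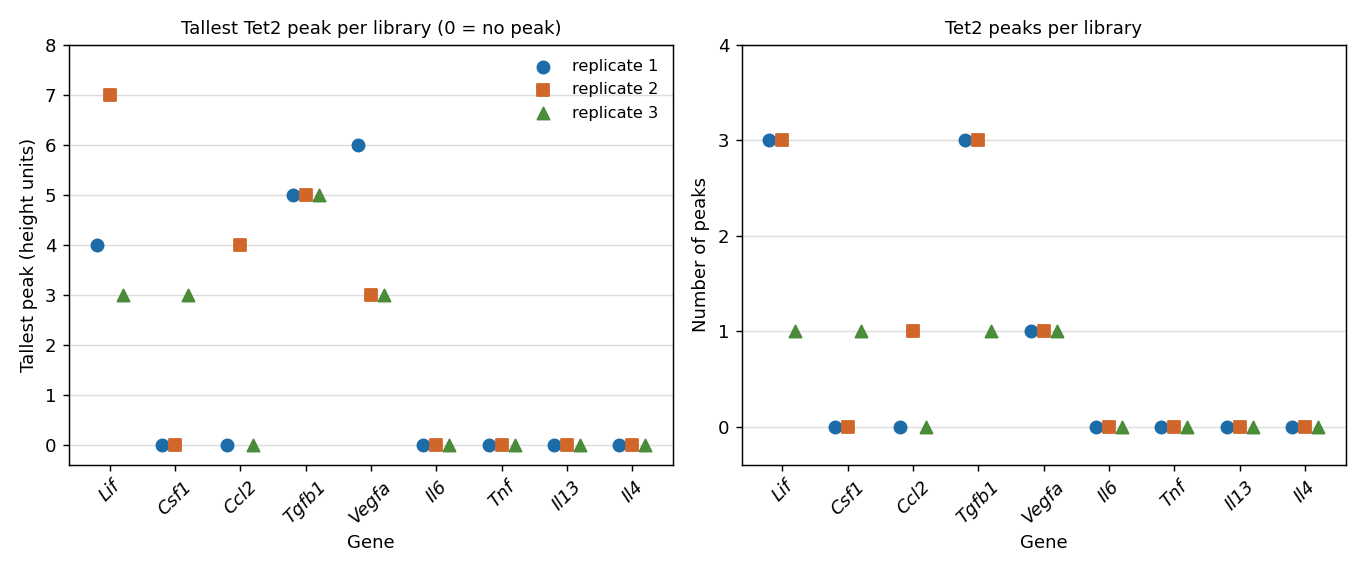
Tallest Tet2 peak in height units (left) and number of peaks (right) for each of the 9 secreted factor genes, with 1 point per replicate library and 0 where a library had no peak. Tgfb1 stands at 5 units in all 3 libraries, Lif spreads from 3 to 7 units, and Il6, Tnf, Il13 and Il4 lie at 0 in each library.

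Lif encodes leukemia inhibitory factor, a cytokine of the interleukin-6 family that signals through Lifr and the shared chain Il6st. The gene lies on chromosome 11 (4257568 to 4272514) on the plus strand. It held 3, 3 and 1 peaks, with tallest heights of 4, 7 and 3 units in replicates 1, 2 and 3 (4.67 ± 2.08, SD, n = 3). Replicate 2 had the tallest peak of all 9 genes, and its 7 units were reached by 21.0% of the protein-coding genes with a peak in that library. Summed over its peaks, Lif took 10, 15 and 3 units, so replicate 3 was lowest by both measures.

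Lif and Tgfb1 each held 7 peaks over the 3 libraries, a number reached by 4.37% of the protein-coding genes with a peak. All 7 Lif peaks fell within 756 nt, between 9257 and 10013 nt from the annotated start, or 61.9% to 67.0% of the way along the span. Such a short stretch was uncommon. Over the 135 protein-coding genes with at least 7 peaks in the 3 libraries together, the median distance between the outermost midpoints was 16920 nt or 65.9% of the span, and 5 of them, Lif included, stayed within 756 nt. The first site of Lif lay at chr11:4266794-4266857 and had 4 units in replicate 1 and 7 units in replicate 2. The second, at chr11:4266981-4267079, was the only site of the 9 genes that all 3 libraries shared, at 3, 4 and 3 units. Its peak had the same start and end in replicates 1 and 2 (4266981 to 4267037), and in replicate 3 it ran from 4267009 to 4267079. A peak of 3 units at 4267366 to 4267467 was seen in replicate 1 alone, and 1 of 4 units at 4267542 to 4267620 in replicate 2 alone.

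Tgfb1 encodes transforming growth factor beta 1, a regulator of immune cells and of tissue repair. The gene lies on chromosome 7 (25687002 to 25705077) on the plus strand. Its tallest peak stood at 5 units in each library, in units the most even height of the 5 genes with a peak. A unit is a different share of each library's summed height. As such shares, these peaks stood at 0.0260%, 0.0274% and 0.0324% in replicates 1, 2 and 3. The gene held 3, 3 and 1 peaks. Its summed height was 11, 12 and 5 units, with replicate 3 again lowest. A height of 5 units was reached by 749 of 1872 protein-coding genes with a peak in replicate 1, by 692 of 1761 in replicate 2 and by 553 of 1537 in replicate 3.

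The Tgfb1 peaks gathered near the annotated start. Of its 7 peaks, 5 had midpoints 820 to 1165 nt from the start, another lay 2049 nt and the last 10144 nt from it. Replicates 2 and 3 shared the site at chr7:25688110-25688122, with 4 and 5 units. The tallest peak of replicate 1, of 5 units, ran from 25688132 to 25688203 and so narrowly missed that site. Further toward the start, replicate 1 had a peak of 3 units at 25687810 to 25687834 and replicate 2 had 1 of 5 units at 25687840 to 25687865, which do not overlap. By overlap, Tgfb1 therefore had no site in all 3 libraries, although the closest midpoints of each pair of libraries were 5 to 46 nt apart. When midpoints within 200 nt counted as 1 site, the number of sites of the 9 genes shared by all 3 libraries was 2, against 1 by overlap. How many sites over all genes were shared under that wider rule is not given here.

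**Figure D2:**
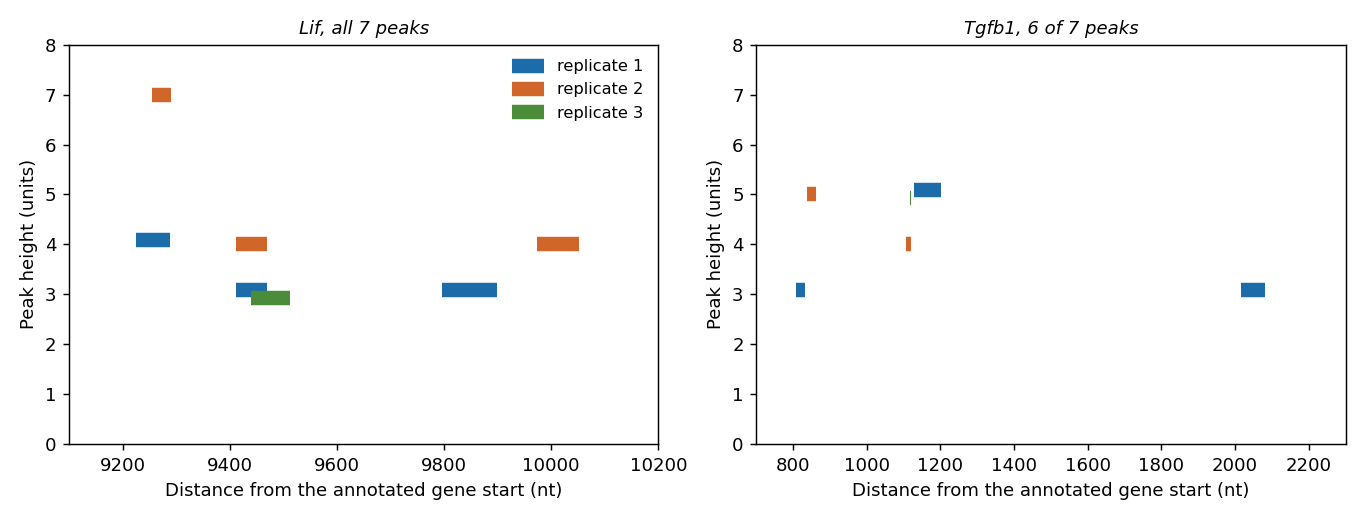
Height in units and extent of single peaks of Lif (left) and Tgfb1 (right) by distance from the annotated start in nt, with 1 colour per replicate and bars drawn to scale with a small vertical offset between replicates (the Tgfb1 peak of replicate 3, 3 nt wide, shows as a thin line). The Lif peaks lie within 756 nt of each other, and 5 of the Tgfb1 peaks lie 820 to 1165 nt from the start; the Tgfb1 peak of 3 units at 10144 nt is outside the panel.

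Vegfa encodes vascular endothelial growth factor A, the main signal for vessel growth. It lies on chromosome 17 (46016993 to 46032377) on the minus strand. It held 1 peak in each library, of 6, 3 and 3 units (4.00 ± 1.73, SD, n = 3). Replicate 1 was the highest, and replicates 2 and 3 stood at the lowest height common in the lists.

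The 3 Vegfa peaks did not coincide. They lay at chr17:46021942-46022017 in replicate 1, chr17:46030847-46030911 in replicate 2 and chr17:46020988-46021009 in replicate 3. Their midpoints were 10398, 1498 and 11379 nt from the annotated start, and the closest pair, in replicates 1 and 3, was 981 nt apart. Vegfa thus counted as found in every library by gene and in no more than 1 library at any site. Of the 693 protein-coding genes with a peak in every library, 66 (9.52%) likewise shared no site between any libraries, and 461 (66.5%) held a site shared by all 3. Averaged over libraries, the tallest heights of Lif, Tgfb1 and Vegfa were 4.67, 5.00 and 4.00 units, where the median of the 693 genes was 5.33.

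**Figure D3:**
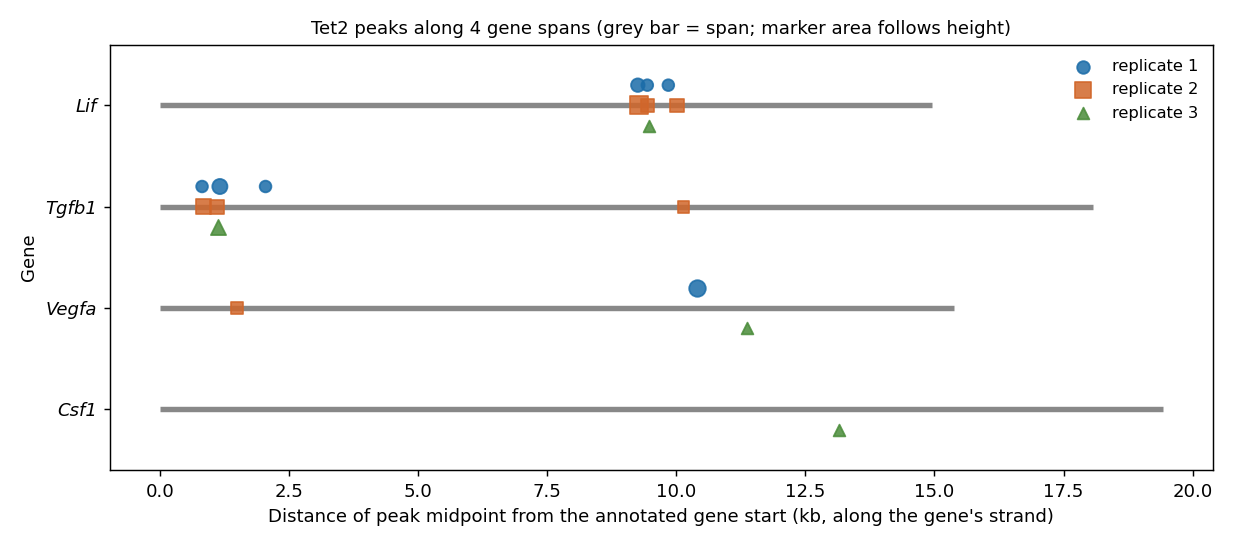
Midpoints of Tet2 peaks along the spans of Lif, Tgfb1, Vegfa and Csf1, in kb from the annotated start along the gene's strand, with rows of points offset by replicate and marker area following height. Lif peaks form 1 cluster, most Tgfb1 peaks lie near the start, and the 3 Vegfa peaks lie apart; Ccl2 is not drawn because no strand was taken for it.

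Ccl2, the monocyte-attracting chemokine also known as MCP-1, spans 1876 nt on chromosome 11 (82035577 to 82037452). It held 1 peak of 4 units in replicate 2, at chr11:82036322-82036388, and none in replicates 1 and 3. The nearest peaks of those libraries lay 1225120 and 833378 nt from the gene. None of the 20 other chemokine genes of the list held a peak. Among them were Ccl7 and Ccl12, relatives of Ccl2, and Ccl3 and Ccl4, which attract leukocytes through other receptors. Over the genome, peaks were found in 14.1% of all protein-coding genes and in 6.87% of those spanning under 7000 nt. By such shares, few peaks would be looked for among 20 genes, and Ccl2 rests on 1 peak in replicate 2. Ccl2 is therefore not shown to stand apart from the other chemokine genes.

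Csf1, the macrophage colony-stimulating factor, lies on chromosome 3 (107741048 to 107760469) on the minus strand. It held 1 peak of 3 units in replicate 3, at chr3:107747255-107747391, 13146 nt from the annotated start. Replicates 1 and 2 had none, and their nearest peaks were 44731 and 385419 nt away. The peak also lies in the span of the long non-coding gene Gm40121 on the plus strand. No source used here says whether peaks were assigned by strand, so these genes cannot be told apart at this peak.

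No library had a peak in Il6, Tnf, Il13 or Il4. Il6, an inflammatory cytokine and a relative of Lif, lies on chromosome 5 (30013114 to 30019975), with the nearest peak 53774 nt away in replicate 1, 900785 nt in replicate 2 and 276997 nt in replicate 3. Tnf lies on chromosome 17 (35199367 to 35202007). Its nearest peaks were in Prrc2a, 38777, 37149 and 38777 nt away in replicates 1, 2 and 3. The type 2 cytokine genes Il4 (53612460 to 53618665) and Il13 (53631323 to 53634702) are neighbours on chromosome 11. For both, the nearest peak in each library lay in Sowaha, 132663 to 132783 nt from Il4 and 151526 to 151646 nt from Il13. Widening the spans by 1000 nt at both ends added no peak to any of the 9 genes.

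The genes differ in span, and the longer of 2 bins of span held peaks more often across the genome. Lif, Tgfb1, Vegfa and Csf1 span 14947, 18076, 15385 and 19422 nt. The 4 genes without a peak span 6862 nt (Il6), 2641 nt (Tnf), 3380 nt (Il13) and 6206 nt (Il4), and Ccl2 is the shortest. Of all protein-coding genes with spans of 14000 to 20000 nt, 14.8% held a peak in at least 1 library and 3.86% in every library. Under 7000 nt, the shares were 6.87% and 1.67%. The part of span length, and of the RNA level of each gene, in which members held a peak was not tested.

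Position and shared sites were also read against all peaks. The 19 peaks of the 9 genes formed 15 sites, of which 1 was shared by 3 libraries, 2 by a pair of libraries, and 12 (80.0%) were seen in a single library. Over all 5969 sites, 73.8% were seen in a single library, 15.1% in a pair and 11.1% in all 3. Of the 18 peaks in members with a known strand, 6 (33.3%) had a midpoint within 1500 nt of the annotated start, 5 of them in Tgfb1 and 1 in Vegfa, against 35.7% of peaks in protein-coding genes with a known strand. This limit was set after the positions were seen. The 10 promoter windows listed for 8 of the genes run from 250 nt before to 50 nt after an annotated start. None of these was touched by a peak, against 469 of all 32851 windows (1.43%). Finding none among 10 windows is thus little different from that share. Spans came without exons, and sequence under the peaks was not used here, so exon, intron, UTR and AU-rich element positions were not analysed here.

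The genes most like Lif, the member with the tallest peak, were sought by the summed differences in tallest height and in number of peaks over the 3 libraries. Mllt6 was closest, together with Nsd1, both at a summed difference of 2. Mllt6 reached 5, 7 and 3 units with 3, 2 and 1 peaks. Nsd1, a histone methyltransferase gene, reached 4, 7 and 4 units with 2, 3 and 1 peaks. Rac2, a small GTPase of blood cells (4, 6 and 3 units), and Syne3 (4, 4 and 3 units) followed at a difference of 3. In all, 35 protein-coding genes lay within a summed difference of 5 from Lif.

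Receptors of the secreted factors held peaks in 7 of 18 genes (38.9%), against 14.1% of all protein-coding genes. Only Il4ra held a peak in every library (5.56% of the receptor list), against 3.16% of all protein-coding genes. The 7 receptor genes with a peak have spans of 27204 nt (Il4ra) to 183063 nt (Tgfbr3). The part of span length in these shares was not tested. Il4ra, the chain shared by the interleukin-4 and interleukin-13 receptors, reached 7, 10 and 6 units with 4, 7 and 2 peaks. Its site near chr7:125572334-125572388 was shared by all 3 libraries at 7, 9 and 6 units, and a site 155 to 203 nt from the annotated start was shared at 3, 7 and 4 units. The ligands Il4 and Il13 thus held no peak while a chain of their receptor held 13, though Il4 and Il13 span only 6206 and 3380 nt. The other chains of that receptor in the list, Il13ra1, Il13ra2 and Il2rg, held none.

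For Tgfb1, the receptor genes Tgfbr1, Tgfbr2 and Tgfbr3 all held a peak in some library. Tgfbr2, the chain that binds the ligand first, had 3 and 14 units in replicates 1 and 2 and no peak in replicate 3. Its 2 peaks lay 338 and 405 nt from the annotated start and did not overlap. Tgfbr1, the signalling chain, had 3 units in replicates 1 and 3, and both peaks also lie in the span of Gm32435. Tgfbr3, a coreceptor, had 4 units in replicate 3 alone. Furin, a protease that cuts the Tgfb1 precursor, reached 9, 10 and 7 units with 8, 9 and 6 peaks. It is 1 of 19 genes listed for secretion and processing, of which 3 held a peak (15.8%), against 14.1% of all protein-coding genes. The 16 genes without a peak include Ltbp1, Ltbp2, Ltbp4, Lrrc32, Itgav, Itgb8, Thbs1 and Mmp9.

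For the other ligands, receptor peaks were few and low. Il6st, the chain shared by Lif and Il6 signalling, held 1 peak of 3 units in replicate 3, and Lifr and Il6ra held none. Nrp2, a coreceptor for VEGF family ligands, and Tnfrsf1b, a Tnf receptor, each held 1 peak of 3 units in replicate 3. Kdr, Flt1, Nrp1, Tnfrsf1a, Ccr2 and Csf1r held no peak in any library. Replicate 3 thus supplied the only peak of 4 of the 7 receptor genes.

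Among 79 other secreted ligands in 3 lists, 6 held a peak (7.59%), against 14.1% of all protein-coding genes. In every library, 1 of the 79 held a peak (1.27%), against 3.16% of all protein-coding genes. That gene was Flt3l, the Flt3 ligand, at 3 units in each library. Kitl, which encodes stem cell factor, had 3 units in replicates 1 and 3 at the same 20 nt, 345 nt from the annotated start, and none in replicate 2. Of other interleukins and haematopoietic cytokines, 2 of 27 held a peak, these 2 genes, and Il3, Il5, Il9, Il10, Csf2 and Osm did not. Of other growth factors and TNF superfamily ligands, 4 of 32 did (12.5%), close to the 14.1% of all protein-coding genes. Tnfsf9, the ligand of 4-1BB, had 6 and 5 units in replicates 2 and 3 at a site that also lies in the span of Gm11110. Gdf15 had 4 units and Tgfb2 had 3 units in replicate 1, and Pdgfa had 3 units in replicate 3. The other relatives of Tgfb1 and Vegfa in the list, Tgfb3, Vegfb, Vegfc and Vegfd, held none.

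**Figure D4:**
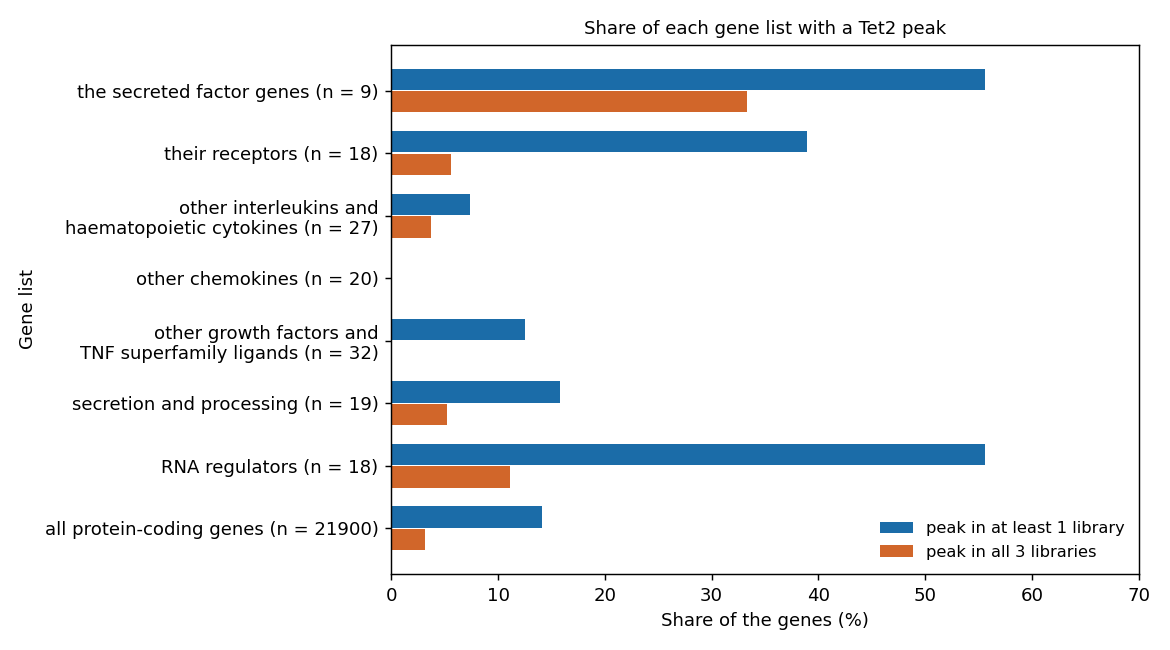
Share of genes (%) with a Tet2 peak in at least 1 library and in all 3 libraries, for the secreted factor genes, their receptors, 5 other gene lists and all protein-coding genes, with the number of genes in brackets. The secreted factor genes stand at 55.6% and 33.3%, the other chemokines at 0, and all protein-coding genes at 14.1% and 3.16%.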

How the data were processed

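Tet2 CLIP libraries of mouse mast cells were analysed in 3 replicates of 1 group. Per the labels' protocols, RNA was cut with RNase I, complexes were separated on a gel, and a peak was called where valleys flanked it. Trimming with cutadapt 1.9 and mapping with STAR 2.4.0i to mm10 are listed in the submitters' processing notes. No source used here gives the caller's thresholds. The values are a signal: the authors deposited a normalized height, start and end for each peak and library, and heights came out as whole multiples of a step within 0.05. Starts were read as 0-based and are printed 1-based. Nothing in the labels says which animals or cultures the libraries came from, so the SD may be partly technical.

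Spans came from RefSeq GRCm38.p6, the assembly of mm10, and strands from its promoter table. Peaks went to each of 49997 spans that held their midpoint, and peaks overlapping by at least 1 nt formed a site. With planted peaks, 600 of 600 came back in their gene and 200 of 200 sites were recovered. Members and 12 other gene lists (receptors, other ligands, secretion, RNA regulators and cell markers) were chosen with earlier results of these data known. Named genes are the members, up to 4 per list with the tallest peak, and the 4 most like Lif. Further genes, such as list members without a peak, were named after their values were seen. The planned ATTTA search needs sequence under the peaks and was not run. Python 3.11.15 and pandas 2.3.3 were used.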

Additional observations from a re-analysis of the deposited data

How the results depend on the processing

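The count of genes with a peak in every library and the shared sites rest on low peaks. Taking only peaks of at least 4 units left 4 genes with a peak, 1 of them (Tgfb1) in every library, 3.33 peaks per library, 0.0879% of the height and 0 sites in all 3 libraries. Peaks of at least 5 units left 3 genes with a peak, 1 in every library, 1.67 peaks, 0.0518% of the height and 0 shared sites. Over all protein-coding genes, 8.74% held a peak of at least 4 units in some library and 1.81% in every library, and at 5 units the shares were 5.65% and 1.26%. Peaks that overlap another library's left 2 genes (Lif and Tgfb1), 1 of them in every library, 2.33 peaks and 0.0568% of the height, against 4.68% of all protein-coding genes in some library and 2.26% in every library. Sites in all libraries numbered 2 with midpoints within 200 nt, and 1 with a larger overlap required. Shares of all sites under these rules and height limits are not given here. Leaving out 1 replicate each gave 4 to 5 genes with a peak, 3 of them in both remaining libraries. The share of all protein-coding genes with a peak in both is not given here, so that count stands without a background. Peaks then numbered 5.5 to 7.5 per library, with 0.116% to 0.163% of the height. Sites in both remaining libraries numbered 1 to 2, with 2 without replicate 1 and 2 without replicate 3. Assigning by any overlap, or to spans widened by 1000 nt, left each of these values in place. No paired analysis was possible because the study has a single group. Depth is unknown, so a gene with no peak is not shown to lack Tet2.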

Other observations

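Genes that control the life of cytokine messages held peaks in 10 of 18 cases (55.6%), with 2 of them in every library (11.1%), against 14.1% and 3.16% of all protein-coding genes. Zfp36l2, a protein that binds AU-rich elements and speeds the decay of messages, reached 13, 4 and 5 units with 5, 1 and 2 peaks in replicates 1, 2 and 3. Hnrnpd, another AU-rich element binding protein, reached 7, 8 and 4 units, with a site shared by all 3 libraries. Mapkapk2, a kinase that acts on the Zfp36 protein, had 6 and 4 units in replicates 1 and 3, and Pcbp2 had 6 units in replicate 1 alone. Replicate 1 held peaks in 7 of these genes, replicate 2 in 4 and replicate 3 in 5. Of the 18 genes, 6 held a peak in 1 library alone, against 7.74% of all protein-coding genes. Besides Pcbp2 these were Tial1 at 4 units and Khsrp, Pcbp1, Rc3h2 and Zfp36 at 3 units. The part of span length and of RNA level in these shares was not tested. Elavl1, Zc3h12a, Rc3h1, Tia1, Arid5a, Ythdf2, Cnot1 and Celf1 held none.

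Of 19 genes for secretion and for processing of the secreted factors, 3 held a peak (15.8%), close to the 14.1% of all protein-coding genes. Besides Furin, Stx4a, a syntaxin of the cell membrane, had 3 units in replicates 1 and 2 at separate places, and Ltbp3, which binds latent Tgfb1, had 3 units in replicate 2. Adam17, the protease that releases Tnf from the cell surface, held no peak in any library.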
